A study of Mus musculus with 24 samples.

Results

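The NR4A genes Nr4a1, Nr4a2 and Nr4a3 were followed in the left ventricles of 24 male mice. Each gene was taken from the probe set that is paired with its symbol alone and, where there are several such probe sets, has the highest mean over the 24 arrays, which gave 1 probe set for each of the 3 genes, among 18820 genes measured this way. The probe sets are 10427035 for Nr4a1 (chromosome 15), 10482772 for Nr4a2 (chromosome 2) and 10504838 for Nr4a3 (chromosome 4). The study asked how the circadian gene Per2 affects transcription in the heart during ischemia and reperfusion. Period 2 deficient (Per2-/-) mice, labelled Per2 KO, and wildtype mice of the strain labelled BL6C57 underwent 1 of 4 procedures, with 3 hearts per genotype and procedure and 1 array per heart. I30 is ischemia for 30 min without reperfusion, IP0 is ischemic preconditioning, in which 5 min of ischemia alternated with 5 min of reperfusion for 4 cycles, and I30R60 is ischemia for 30 min followed by 60 min of reperfusion. The control hearts of each genotype are labelled untreated control, and the study describes them as sham operated. They are called sham hearts here. All groups shared anesthesia, catheterization and flushing of the heart with cold saline before harvest, and the Per2-/- hearts carried the deletion in the whole animal.

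The NR4A genes encode orphan nuclear receptors, DNA-binding transcription factors whose activity is set by how much of them is made more than by a bound ligand. Nr4a1 encodes Nur77, Nr4a2 encodes Nurr1 and Nr4a3 encodes Nor1, and all bind the NGFI-B response element (NBRE) as monomers, while Nur77 and Nurr1 also pair with retinoid X receptors. They are immediate early genes: cyclic AMP acting through CREB, and calcium acting through MEF2 factors, switch them on within minutes without new protein synthesis, and adrenergic stimulation and exercise are known to induce them in muscle.

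The sequences just before the start sites of the genes are shown because CREB reads the cyclic AMP response element (CRE), and all 3 windows hold several half-sites of it. Each window is the 250 bases before a start site in RefSeq's GRCm38.p6 annotation, 5′ to 3′ on the gene's strand, with the CRE half-site TGACG, or CGTCA where it lies on the opposite strand, in capitals.
Nr4a1: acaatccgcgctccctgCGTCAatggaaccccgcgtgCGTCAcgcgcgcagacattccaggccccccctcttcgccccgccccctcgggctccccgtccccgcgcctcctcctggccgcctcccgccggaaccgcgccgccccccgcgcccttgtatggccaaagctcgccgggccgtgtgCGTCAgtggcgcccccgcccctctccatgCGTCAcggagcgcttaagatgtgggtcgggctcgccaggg
Nr4a2: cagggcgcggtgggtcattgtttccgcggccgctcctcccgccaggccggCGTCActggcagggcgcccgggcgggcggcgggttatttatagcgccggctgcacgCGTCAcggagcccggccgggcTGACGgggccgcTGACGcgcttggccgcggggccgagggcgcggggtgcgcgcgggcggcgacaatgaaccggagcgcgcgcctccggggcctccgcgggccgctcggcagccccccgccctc
Nr4a3: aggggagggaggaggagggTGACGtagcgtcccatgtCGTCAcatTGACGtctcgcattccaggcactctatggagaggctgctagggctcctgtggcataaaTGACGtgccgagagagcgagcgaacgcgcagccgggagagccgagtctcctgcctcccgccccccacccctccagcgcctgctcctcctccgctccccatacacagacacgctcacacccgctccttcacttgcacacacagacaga
The Nr4a1 window is chr15:101266596-101266845 on the plus strand, the Nr4a2 window is chr2:57124004-57124253 on the minus strand, and the Nr4a3 window is chr4:48045055-48045304 on the plus strand. The Nr4a1 window lies inside the annotated span of its gene, ahead of an internal start, and most of the Nr4a3 window, with 3 of its 4 half-sites wholly, also lies inside the span of its gene. The half-sites of Nr4a1 begin 233, 213, 69 and 40 bases before the start, all on the opposite strand. Those of Nr4a2 begin 200 and 144 bases before it on the opposite strand and 123 and 111 bases before it on the gene's strand. Nr4a3 has 1 on the opposite strand, from base 213, and 3 on the gene's strand, from bases 231, 205 and 147.

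Each NR4A window held 4 half-sites. Among 32851 mouse promoter windows of the same length, 17.8% held at least 1 half-site and 45 windows (0.137%) held 4 or more. The NR4A windows are rich in G and C, at 74.4% for Nr4a1, 80.0% for Nr4a2 and 63.6% for Nr4a3, and how far base composition sets the number of half-sites was not tested. The full palindromic CRE, TGACGTCA, was in none of the 3 windows and in 1.55% of all windows. The AP-1 site TGANTCA (6.75% of all windows), the E-box CACGTG (6.02%), the NBRE AAAGGTCA (1.34%), the EGR site GCGTGGGCG (0.536%) and the CArG box (1.47%) were in none of the 3 either. The core ACGTG (16.6% of all windows) occurred once, in Nr4a3, where it overlaps the half-site nearest to the start. A MEF2 site (2.92% of all windows) occurred once, in Nr4a2. Both strands were searched for each motif, and a match is a run of letters, not evidence of binding.

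**Figure D1:**
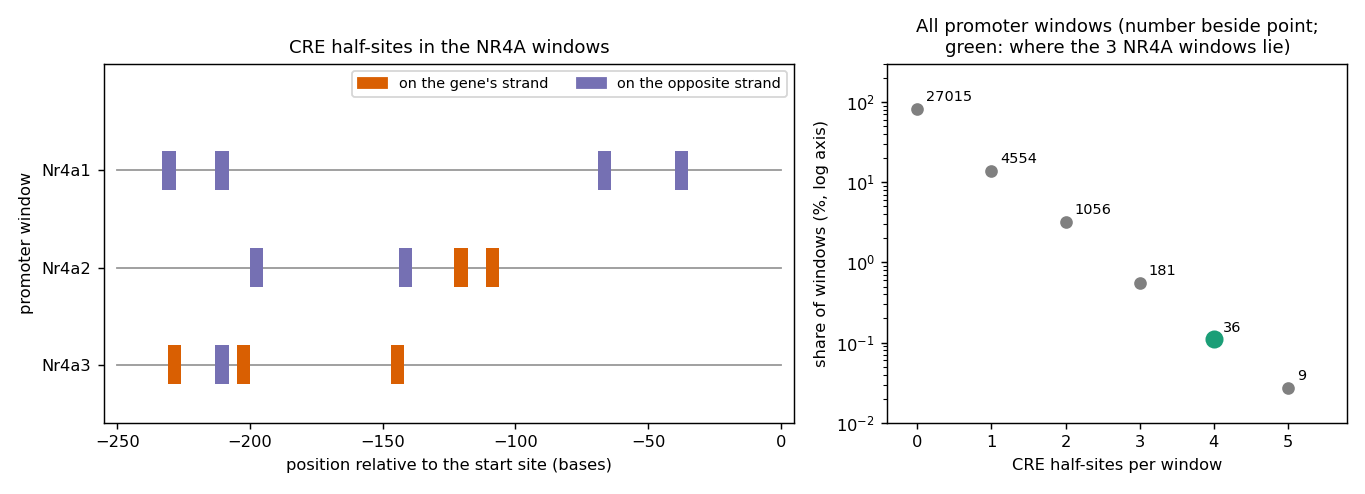
CRE half-sites in the promoter windows. Left, each bar is a half-site in the 250 bases before the start site of an NR4A gene (x axis, bases; colour, strand), 4 per gene. Right, the share of all 32851 promoter windows (percent, log axis) by the number of half-sites they hold, where the NR4A windows fall in the class of 36 windows with 4.

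The arrays are described by values that bear on these genes. The deposited values are log2 intensities, so that a difference of 1 is a doubling, and levels are compared within a gene only. Ventricular muscle markers were high throughout (mean log2 value of 7 cardiomyocyte markers 12.5 to 12.7 on all 24 arrays). The atrial marker Myl7 was above a log2 value of 5 on 4 arrays, at 11.2 in Per2-/- sham heart 3, 9.12 in Per2-/- IP0 heart 3, and 8.24 and 5.22 in wildtype sham hearts 1 and 2, against 2.79 to 3.73 on the other 20 arrays. The Per2 probe set ranged over 4.94 to 5.30 in I30 hearts of Per2-/- mice, against 5.89 to 6.44 in those of wildtype mice. In Per2-/- sham hearts it ranged over 5.63 to 5.69, within the 5.33 to 6.10 of wildtype sham hearts. In IP0 hearts it was 5.19 to 5.65 in Per2-/- and 4.66 to 5.36 in wildtype mice, with the higher mean in Per2-/- mice (5.48 against 5.11). In I30R60 hearts it was 5.58 to 6.25 and 5.51 to 6.71. The probe set therefore does not by itself check the genotype. Lung markers were raised in wildtype I30 hearts (4 of 5 called against sham). The spread of log2 values on an array (interquartile range) was 3.85 to 3.98 on the Per2-/- I30 arrays and 3.76 to 3.87 on the wildtype I30 arrays, against 3.95 to 4.11 on the arrays of the other groups. Replicate numbers name the hearts of a group. Comparisons used limma over all 18820 genes, and a gene was called at a Benjamini-Hochberg adjusted p under 0.05. Ranks among all genes are by log2 change, not by p, and so favour genes that vary widely. In comparisons with sham within a genotype the NR4A standard errors were 0.24 to 0.30, against a median of 0.137 over all genes.

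In wildtype hearts ischemic preconditioning raised all 3 NR4A genes. Nr4a1 read 10.75, 10.60 and 10.72 in wildtype IP0 hearts, against 9.09, 9.44 and 8.76 in wildtype sham hearts. The groups did not overlap, and each IP0 heart stood 1.51 to 1.65 above the sham mean. The log2 change was 1.59 (standard error 0.24, 3.02-fold, limma adjusted p = 0.00156), the 14th highest of 18820 genes. Nr4a2 read 6.74, 7.16 and 7.08 in wildtype IP0 hearts and 5.57, 5.99 and 5.06 in wildtype sham hearts. Again the lowest treated heart lay above the highest sham heart, and the log2 change was 1.45 (standard error 0.24, 2.73-fold, limma adjusted p = 0.00504). Nr4a3 read 8.15, 8.15 and 8.32 in wildtype IP0 hearts and 6.93, 7.28 and 6.24 in wildtype sham hearts. The IP0 hearts lay close together (SD 0.10) and the sham hearts were spread (SD 0.53), and the log2 change was 1.39 (standard error 0.30, 2.62-fold, limma adjusted p = 0.0347). That 3 of 3 NR4A genes were called higher compares with 0.521% of all genes, and 9.8% of all genes had every IP0 heart above every sham heart. The call of Nr4a3 was lost when wildtype sham heart 1 or 3 or any of the 3 IP0 hearts was left out, with a log2 change of 1.10 to 1.45 and a limma adjusted p of 0.0864 to 0.177. Wildtype sham hearts 1 and 2, which serve all wildtype comparisons with sham, had high Myl7 (8.24 and 5.22). Without both, only sham heart 3 is left, the lowest of its group for each gene. Such a fit cannot check these changes, and the part of atrial tissue in them was not tested. In whole ventricle, a change in how many cells make a transcript and a change in the amount per cell cannot be told apart.

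The same genes were higher in wildtype hearts after ischemia with reperfusion. Nr4a1 read 10.34, 10.26 and 10.78 in wildtype I30R60 hearts, a log2 change of 1.36 against sham (standard error 0.24, 2.58-fold, limma adjusted p = 0.00209). Nr4a2 read 7.06, 6.63 and 7.30, a log2 change of 1.46 (standard error 0.24, 2.74-fold, limma adjusted p = 0.00158). Nr4a3 read 8.41, 8.53 and 8.75, a log2 change of 1.75 (standard error 0.30, 3.35-fold, limma adjusted p = 0.00206). No I30R60 heart overlapped the sham hearts given above for any of the 3 genes, as was so for 8.04% of all genes. The 3 calls compare with 1.66% of all genes called higher, and they held whichever single array was left out (limma adjusted p at most 0.0193). Of 7 neutrophil markers, 1 was called higher in the same comparison, with a summed intensity of 196 to 453 in wildtype I30R60 hearts and 130 to 149 in wildtype sham hearts, and their part in the NR4A values was not tested.

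In wildtype hearts after ischemia without reperfusion none of the NR4A genes was called. Nr4a1 read 9.60, 8.92 and 9.66 in wildtype I30 hearts, Nr4a2 read 5.61, 5.46 and 6.01, and Nr4a3 read 6.69, 6.01 and 7.34. For each gene these values overlapped the sham hearts. The log2 changes against sham were 0.30 (95% interval -0.20 to 0.79) for Nr4a1, 0.15 (-0.36 to 0.66) for Nr4a2 and -0.14 (-0.77 to 0.50) for Nr4a3, with limma adjusted p of 0.509 to 0.835 and no gene of the 3 at an unadjusted p under 0.05 by limma or by the methods' t-test. In this comparison 2.39% of all genes were called. Setting the treatments against each other gave the same picture. I30R60 exceeded I30 in wildtype hearts by 1.07 for Nr4a1 (limma adjusted p = 0.0116), 1.31 for Nr4a2 (0.00323) and 1.88 for Nr4a3 (0.000842), where 3.24% of all genes were called higher. IP0 exceeded I30 in wildtype hearts by 1.30 for Nr4a1, 1.30 for Nr4a2 and 1.52 for Nr4a3 (limma adjusted p of 0.00685 to 0.0105), where 1.76% of all genes were called higher. In these comparisons 4 of 5 lung markers were called lower in I30R60 than in I30 hearts and 3 of 5 lower in IP0 than in I30 hearts, and their part was not tested. With quantile normalization, which gives every array the same spread, I30R60 exceeded I30 in wildtype hearts by 1.03, 1.22 and 1.81 for Nr4a1, Nr4a2 and Nr4a3 (limma adjusted p of 0.00193 to 0.0204). The Nr4a1 difference between I30R60 and I30 fell to 0.83 without wildtype I30 heart 2 and to 0.91 without wildtype I30R60 heart 3, with a limma adjusted p of 0.0601 and 0.0600. I30R60 and IP0 did not differ by a called amount for any of the 3 genes (log2 differences -0.23, 0.01 and 0.36 for Nr4a1, Nr4a2 and Nr4a3 in wildtype hearts), as 1.24% of all genes did.

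**Figure D2:**
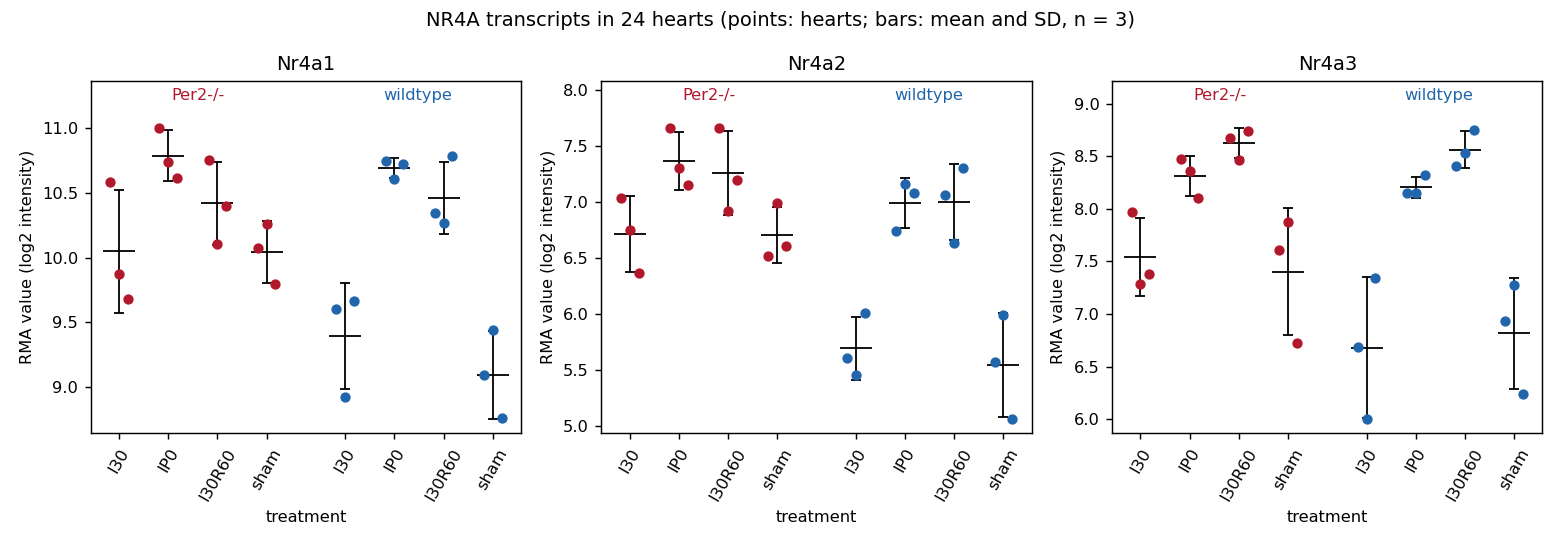
RMA values (log2 intensity) of Nr4a1, Nr4a2 and Nr4a3 in 24 hearts. Points are hearts, bars the mean and SD of 3, with Per2-/- groups on the left and wildtype groups on the right of each panel, and wildtype I30 and sham hearts are the lowest groups for each gene.

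In Per2-/- hearts 1 NR4A change against sham was called, that of Nr4a3 after I30R60. Nr4a3 read 8.67, 8.46 and 8.74 in Per2-/- I30R60 hearts, against 7.61, 7.87 and 6.73 in Per2-/- sham hearts, with no overlap, as for 8.32% of all genes. The log2 change was 1.22 (standard error 0.30, 2.34-fold, limma adjusted p = 0.0229), where 2.78% of all genes were called higher. The lowest of these sham values belongs to heart 3, the array with the highest Myl7. Without that heart the change was 0.89 and the limma adjusted p 0.135, and without all 4 arrays of high Myl7 it was 0.89 and 0.113. The call was also lost without I30R60 heart 1 (1.20, limma adjusted p = 0.0764) or 3 (1.17; 0.0721). In Per2-/- I30R60 hearts 5 of 7 neutrophil markers were called higher, with a summed intensity of 251 to 427 against 88.6 to 112 in Per2-/- sham hearts, and their part in the Nr4a3 value was not tested.

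Nr4a1 read 10.75, 10.10 and 10.40 in Per2-/- I30R60 hearts and 10.08, 10.26 and 9.79 in Per2-/- sham hearts. Hearts of both groups overlapped, and the log2 change was 0.37 (95% interval -0.12 to 0.87, limma adjusted p = 0.451). Nr4a2 read 7.66, 6.92 and 7.20 in Per2-/- I30R60 hearts and 6.52, 6.99 and 6.61 in Per2-/- sham hearts. Heart 2 of each group crossed over, and the log2 change was 0.56 (95% interval 0.04 to 1.07, limma adjusted p = 0.234).

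After preconditioning every Per2-/- heart lay above every Per2-/- sham heart for all 3 genes, as 6.38% of all genes did, yet none was called. Nr4a1 read 11.00, 10.74 and 10.62 in Per2-/- IP0 hearts, a log2 change of 0.74 (95% interval 0.25 to 1.24, limma adjusted p = 0.342). Nr4a2 read 7.66, 7.30 and 7.15, a change of 0.66 (0.15 to 1.17, limma adjusted p = 0.427). Nr4a3 read 8.47, 8.36 and 8.10, a change of 0.91 (0.28 to 1.54, limma adjusted p = 0.367). All 3 genes had an unadjusted limma p under 0.05, the methods' t-test had 2 of them under it and 0 after adjustment, and 0.117% of all genes were called higher. These changes were the 79th, 105th and 46th highest of 18820 genes for Nr4a1, Nr4a2 and Nr4a3.

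After ischemia alone the Per2-/- hearts stood where the Per2-/- sham hearts did. Nr4a1 read 10.59, 9.88 and 9.68 in Per2-/- I30 hearts, Nr4a2 read 7.04, 6.75 and 6.36, and Nr4a3 read 7.97, 7.28 and 7.38. The log2 changes against sham were 0.0032 (95% interval -0.49 to 0.50) for Nr4a1, 0.01 (-0.50 to 0.52) for Nr4a2 and 0.14 (-0.49 to 0.77) for Nr4a3. No gene of 18820 was called in this comparison by limma or the methods' t-test, and 1343 genes (7.14%) had an unadjusted limma p under 0.05. Against I30, I30R60 raised Nr4a3 in Per2-/- hearts by 1.08 (standard error 0.30, limma adjusted p = 0.0407), where 3.69% of all genes were called higher. That call was lost without I30 heart 2 or 3 or without any single I30R60 heart (limma adjusted p of 0.0656 to 0.150), and with the replicate number as a block (0.0521). Nr4a1 and Nr4a2 differed by 0.37 and 0.54 between these groups and were not called.

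**Figure D3:**
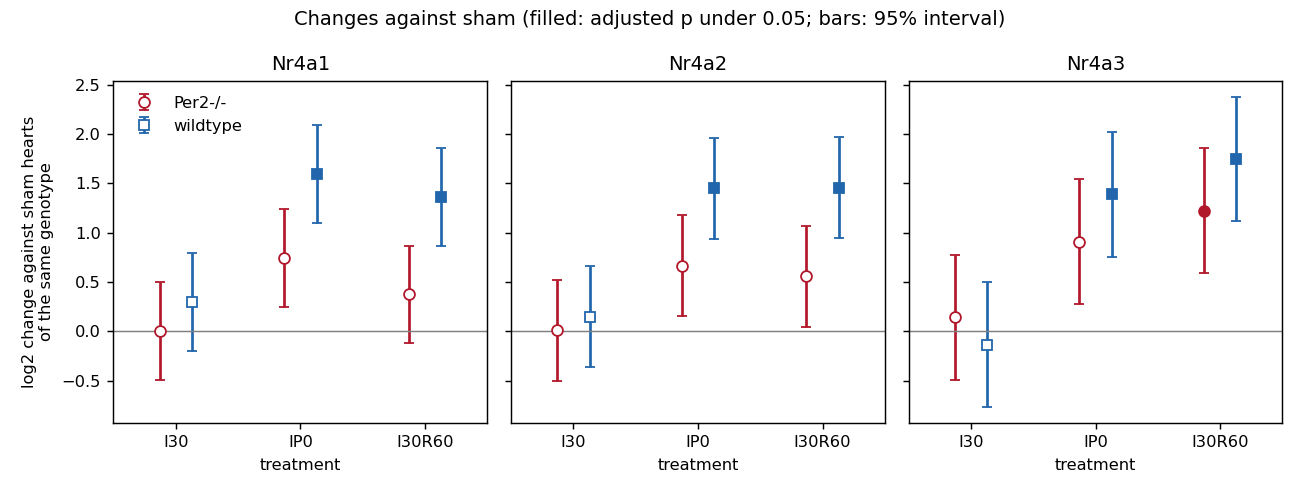
Log2 change against sham hearts of the same genotype for each NR4A gene and treatment, Per2-/- (red circles) and wildtype (blue squares), with 95% intervals. Filled symbols are called, which are the 6 wildtype IP0 and I30R60 values and Nr4a3 in Per2-/- I30R60 hearts.

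Between the sham hearts of both genotypes 1 of the 3 genes was called. Nr4a2, at 6.52, 6.99 and 6.61 in Per2-/- sham hearts and 5.57, 5.99 and 5.06 in wildtype sham hearts, was higher by 1.16 (standard error 0.24, 2.24-fold, limma adjusted p = 0.0475), the 10th highest difference of 18820 genes, where 0.143% of all genes were called higher. Nr4a1, at 10.08, 10.26 and 9.79 against 9.09, 9.44 and 8.76, did not overlap either, as 8.35% of all genes did in this direction, and its difference was 0.95 (95% interval 0.45 to 1.44, limma adjusted p = 0.137). Nr4a3, at 7.61, 7.87 and 6.73 against 6.93, 7.28 and 6.24, overlapped, with a difference of 0.59 (-0.05 to 1.22, limma adjusted p = 0.711). Wildtype sham heart 3 was the lowest and heart 2 the highest of its group for all 3 genes. The Nr4a2 call was a marginal one: it was lost in 15 of the 24 fits that left out 1 array, with a difference of 0.92 without wildtype sham heart 3 (limma adjusted p = 0.315) and 1.02 without Per2-/- sham heart 2 (0.247), and with the replicate number as a block (0.0670). Without the arrays of high Myl7, which leaves 2 Per2-/- sham hearts and wildtype sham heart 3 alone, assumed to vary like the other groups, the differences were 1.41, 1.69 and 1.50 for Nr4a1, Nr4a2 and Nr4a3, and none was called.

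The genotypes also stood apart after ischemia alone, short of the threshold. In I30 hearts Nr4a2 was at 7.04, 6.75 and 6.36 in Per2-/- mice and 5.61, 5.46 and 6.01 in wildtype mice, with no overlap, as for 8.21% of all genes, and differed by 1.03 (95% interval 0.51 to 1.54, limma adjusted p = 0.0611). Nr4a1 was at 10.59, 9.88 and 9.68 in Per2-/- I30 hearts against 9.60, 8.92 and 9.66 in wildtype I30 hearts, a difference of 0.65 (0.16 to 1.15, limma adjusted p = 0.247). Nr4a3 differed by 0.86 (0.23 to 1.50, limma adjusted p = 0.229), and the highest wildtype heart (7.34) lay above the lowest Per2-/- heart (7.28). In this comparison 0.489% of all genes were called higher. Nr4a2 passed the threshold in 4 of the 24 fits that left out 1 array, namely wildtype I30 heart 3 (1.18, limma adjusted p = 0.0431), wildtype sham heart 2 (0.0424) or 3 (0.0404), or Per2-/- I30R60 heart 1 (0.0493). The summed intensity of 5 lung markers lay between 42.2 and 65.5 in the Per2-/- hearts and between 70.1 and 313 in the wildtype hearts, with 2 of 5 called lower in Per2-/- hearts, and its part was not tested.

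After either protocol with reperfusion the estimated differences between the genotypes were smaller than in sham hearts, and their intervals were wide. In IP0 hearts the Per2-/- minus wildtype difference was 0.10 (95% interval -0.40 to 0.59) for Nr4a1, 0.38 (-0.13 to 0.89) for Nr4a2 and 0.11 (-0.53 to 0.74) for Nr4a3. In I30R60 hearts it was -0.04 (-0.54 to 0.45), 0.26 (-0.25 to 0.77) and 0.06 (-0.57 to 0.70). None was called, where 0.0797% of all genes were called in IP0 hearts and 0.175% in I30R60 hearts, none had an unadjusted p under 0.05 by limma or by the methods' t-test, and the upper bounds of these intervals are 0.45 to 0.89.

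Whether the response itself differed between genotypes was tested by the interaction, the Per2-/- change minus the wildtype change. It was -0.85 (95% interval -1.55 to -0.15) for Nr4a1, -0.78 (-1.51 to -0.06) for Nr4a2 and -0.48 (-1.37 to 0.42) for Nr4a3 after IP0. After I30R60 it was -0.99 (-1.69 to -0.29), -0.90 (-1.62 to -0.18) and -0.52 (-1.42 to 0.37), where Nr4a1 had the 13th lowest and Nr4a2 the 22nd lowest value of 18820 genes. No interaction was called for these or any other gene (limma adjusted p of 0.888 to 0.997 for the NR4A genes after IP0 and I30R60), while 905 genes (4.81%) after IP0 and 1034 (5.49%) after I30R60 had an unadjusted p under 0.05, Nr4a1 and Nr4a2 among them. For the interaction an ordinary linear-model contrast on the arrays of the groups involved took the place of the methods' t-test. It had 1 NR4A gene under the unadjusted threshold after IP0 and 1 after I30R60, and 0 after adjustment. After I30 the interactions were -0.29, -0.14 and 0.28. The difference in response between genotypes is therefore not shown, and each interaction uses the same sham hearts as the sham comparison. Averaged over the genotypes, IP0 raised Nr4a1 by 1.17, Nr4a2 by 1.06 and Nr4a3 by 1.15 (limma adjusted p of 0.000626 to 0.00674; 1.02% of all genes called higher). I30R60 raised them by 0.87, 1.01 and 1.48 (limma adjusted p of 9.9e-05 to 0.00186; 4.29% called higher). I30 left them at 0.15, 0.08 and 0.0021, which were not called (1.61% of all genes were).

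The 8 groups ordered by their means split the same way for Nr4a1 and Nr4a2. For both genes wildtype I30 (9.40 ± 0.41 and 5.69 ± 0.28, SD, n = 3) and wildtype sham (9.10 ± 0.34 and 5.54 ± 0.47) were at the bottom, and the next group up, Per2-/- sham (10.04 ± 0.24 and 6.71 ± 0.25), was higher by 0.65 for Nr4a1 and 1.01 for Nr4a2 with no overlap. For both genes Per2-/- IP0 hearts were at the top (10.79 ± 0.20 and 7.37 ± 0.26). In the order of Nr4a3 the groups with reperfusion came first: Per2-/- I30R60 (8.63 ± 0.14), wildtype I30R60 (8.56 ± 0.17), Per2-/- IP0 (8.31 ± 0.19) and wildtype IP0 (8.21 ± 0.098). Per2-/- I30 (7.54 ± 0.37) was 0.66 below them with no overlap, followed by Per2-/- sham (7.40 ± 0.60), wildtype sham (6.82 ± 0.53) and wildtype I30 (6.68 ± 0.67). All other neighbours in these orders overlapped. Over both genotypes Nr4a3 lay between 8.10 and 8.75 in all 12 hearts that had reperfusion and between 6.01 and 7.97 in the other 12, whereas Nr4a1 and Nr4a2 of these sets overlapped. By protocol the hearts with reperfusion were also harvested longer after the first occlusion than I30 hearts. Reperfusion and elapsed time therefore cannot be told apart.

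The NR4A genes were set beside the rest of their superfamily. Of 49 nuclear receptor genes listed, 42 were measured, and Nr4a1, Nr4a2 and Nr4a3 held the 3 highest log2 changes among them after IP0 and after I30R60 in both genotypes, and in the Per2-/- against wildtype difference of sham and of I30 hearts. After wildtype IP0 the other 39 receptors lay between -0.61 (Nr0b2) and 0.24 (Esr1), with a median of -0.06. After wildtype I30R60 they lay between -0.44 (Ppara, the fatty acid sensor) and 0.33 (Vdr, the vitamin D receptor). In Per2-/- hearts the highest of them was Nr1h5 after IP0 (0.28) and Nr1d2, the clock repressor Rev-erb beta, after I30R60 (0.27). None of the 39 was called in these 4 comparisons or between the sham hearts. After wildtype I30, 2 of them were called higher, the progesterone receptor Pgr (0.55, limma adjusted p = 0.0490) and Nr0b1 (0.46, limma adjusted p = 0.0334), while the NR4A genes were not.

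**Figure D4:**
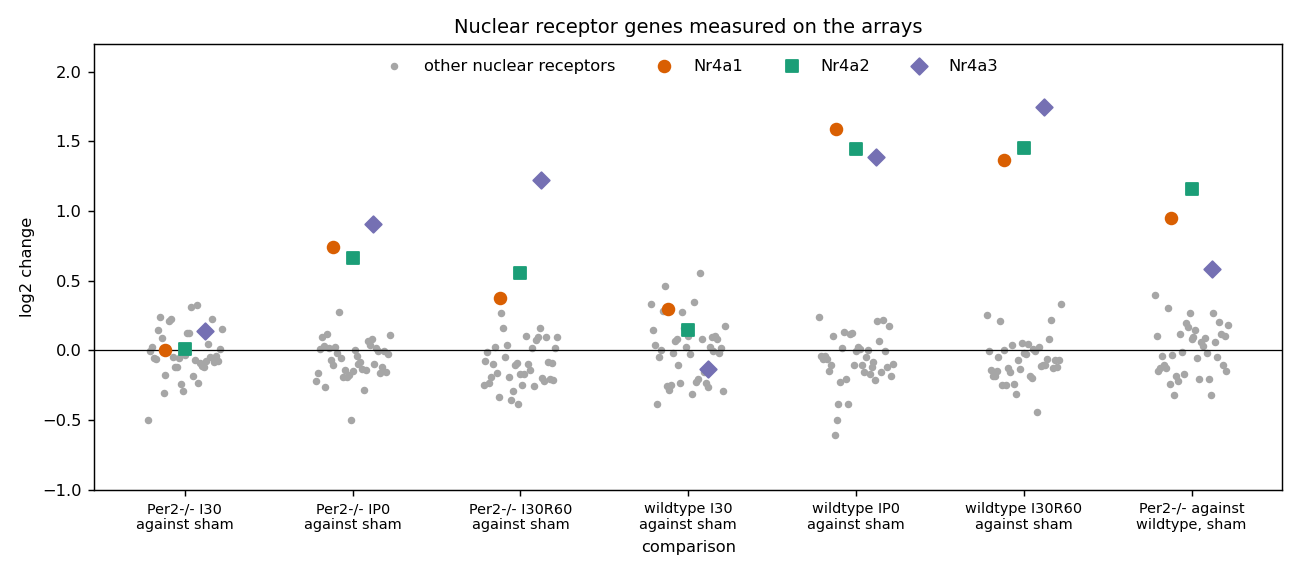
Log2 change of 42 nuclear receptor genes in 7 comparisons. Grey points are the 39 receptors outside the NR4A family and coloured symbols the NR4A genes, which lie above all grey points after IP0 and I30R60 in both genotypes and between the sham hearts of both genotypes, but among them after I30.

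Transcripts of factors known to act upstream of the NR4A genes were called in some comparisons and not in others. Of 8 genes for CREB-type factors and their coactivators (Creb1, Atf1, Crem, Crtc1 to Crtc3, Crebbp, Ep300), none was called against sham in any of the 6 comparisons within a genotype, with list medians of -0.07 to 0.04. Averaged over the genotypes, 1 of the 8 was called higher after I30R60. In each genotype 1 of the 8 was also called higher in I30R60 hearts than in I30 hearts, and 1 higher than in IP0 hearts. These factors act largely by phosphorylation, which arrays do not measure. Of 7 MEF2 factors and class IIa histone deacetylases measured, 1 was called against sham within a genotype or between sham hearts: Hdac4, a repressor of MEF2, was higher by 0.33 in wildtype I30 hearts (limma adjusted p = 0.041) and 0.41 in wildtype I30R60 hearts (0.00736), and by 0.43 in Per2-/- sham hearts over wildtype sham hearts (0.024). Averaged over the genotypes, Hdac7 was lower by 0.32 after I30R60 (limma adjusted p = 0.0145). Of 8 genes of the calcineurin and NFAT pathway, Rcan1, a calcineurin inhibitor and NFAT target, rose by 0.91 in Per2-/- I30R60 hearts, and Nfatc3 fell by 0.41 there and by 0.55 in wildtype I30R60 hearts. Of 5 genes for the serum response factor and its partners, Srf itself rose by 0.36 after wildtype IP0 and Elk4, a partner, fell by 0.26 after wildtype I30 (limma adjusted p = 0.0453). The retinoid X receptors Rxra, Rxrb and Rxrg, partners of Nur77 and Nurr1, were called in none of the 6 comparisons with sham within a genotype or between sham hearts, while Rxrg was lower by 0.17 after I30R60 averaged over the genotypes (limma adjusted p = 0.0486).

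Other known CREB targets rose in part. Of 8 listed (Crem, Sik1, Per1, Ppargc1a, Fos, Dusp1, Pde4d, Nfil3), 4 were called higher after wildtype IP0, with a list median of 0.56 against 0.00068 over all genes: Fos (2.61), Nfil3 (1.53), Dusp1 (0.94) and Sik1 (0.84). After wildtype I30R60, Fos (3.51) and Nfil3 (1.79) were called, and the same pair was called after Per2-/- I30R60 (2.11 and 1.31). After wildtype I30, Nfil3 was called (1.00, limma adjusted p = 0.0334), with a list median of 0.12. After Per2-/- IP0 none was called and the list median was 0.35 against -0.02 over all genes. Between the sham hearts none was called, with a median of 0.42 against 0.01 over all genes. The wider set of immediate early genes, 15 measured and without the NR4A genes, had 10 called higher after wildtype IP0, 12 after wildtype I30R60, 4 after Per2-/- IP0 and 10 after Per2-/- I30R60. Over all genes 0.521%, 1.66%, 0.117% and 2.78% were called higher in these comparisons, in that order. The same shares apply to the counts of CREB targets above. After wildtype I30, where no NR4A gene was called, 3 of the 15 were called higher, Atf3 (1.80), Jun (0.99) and the mRNA-decay factor Zfp36 (0.91), and 2 were called lower, Egr2 (-1.18) and Egr3 (-0.99). Over all genes 2.39% were called there in either direction. Between the sham hearts of both genotypes 0 of the 15 were called, with a median of 0.51. Between I30 hearts 3 of the 15 were called higher in Per2-/- mice, Egr3 (1.72), Egr2 (1.64) and Egr1 (0.61), with a median of 0.24. Over all genes 0.489% were called higher in that comparison.

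Genes known as NR4A targets in other tissues were mostly not called, with Pfkm as the exception among those of glucose metabolism. The NR4A receptors are known to raise genes of glucose use and glycogen breakdown in skeletal muscle and of glucose output in liver. Of 9 such genes (Slc2a4, Pfkm, Pygm, Eno3, Pgam2, Fbp1, Fbp2, Phkg1, G6pc), 0 were called against sham in any of the 6 comparisons or between the genotypes in sham or I30 hearts. Their list medians lay between -0.09 and 0.10 in these 8 comparisons. The largest single value after wildtype IP0 was Fbp1 at 0.29 (limma adjusted p = 0.486), and the largest after wildtype I30R60 was G6pc at 0.30 (limma adjusted p = 0.447). Pfkm, muscle phosphofructokinase, stood at 0.25 after wildtype IP0 (standard error 0.07, limma adjusted p = 0.119), was called higher by 0.22 after IP0 averaged over the genotypes (0.0264) and by 0.30 in wildtype IP0 over I30 hearts (0.0249), and was called lower by 0.30 in Per2-/- I30R60 than in IP0 hearts (0.0296). Of 4 genes of dopamine neurons that Nurr1 controls in the brain (Th, Ddc, Slc6a3, Slc18a2), none was called against sham, and Ddc, an aromatic amino acid decarboxylase, was lower by 0.97 in Per2-/- I30 hearts than in wildtype I30 hearts (limma adjusted p = 0.0433).

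The genes whose pattern over the 24 arrays was most like that of an NR4A gene were taken by Pearson's r, a description over arrays that share their groups and RNA extracts. For Nr4a1 they were Nr4a2 (r = 0.942), Dusp1 (0.929), a phosphatase of MAP kinases, Ccn1 (0.914), a secreted matrix protein, Apold1 (0.905), an endothelial early response gene, and Nr4a3 (0.892). For Nr4a2 they were Nr4a1 (0.942), Ccn1 (0.909), Apold1 (0.907), Egr1 (0.895), a zinc-finger early transcription factor, and Plk2 (0.893), a polo-like kinase. For Nr4a3 they were Ccn1 (0.941), Egr1 (0.937), Apold1 (0.934), Ccn2 (0.932), a matrix protein related to Ccn1, and Plk2 (0.918). Nr4a2 and Nr4a3 had an r of 0.884. When each array was taken as its deviation from its group mean, the pairs kept an r of 0.824 (Nr4a1 with Nr4a2), 0.822 (Nr4a1 with Nr4a3) and 0.676 (Nr4a2 with Nr4a3), so that hearts of a group which were high for one were mostly high for the others.

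The values of these neighbours can be set beside the NR4A genes. After wildtype IP0, Apold1 changed by 1.55, Ccn1 by 1.26, Plk2 by 1.11, Egr1 by 0.95 and Dusp1 by 0.94, all called, and Ccn2 by 0.87, not called. After Per2-/- IP0, Plk2 was called at 0.90 (limma adjusted p = 0.00496), where no NR4A gene was. After wildtype I30R60, Apold1 (1.77), Plk2 (1.34), Ccn1 (1.28), Egr1 (1.16) and Ccn2 (1.08) were called, and Dusp1 (0.47, limma adjusted p = 0.217) was not. The same genes were called after Per2-/- I30R60: Apold1 (1.35), Plk2 (0.98), Ccn2 (0.95), Ccn1 (0.78) and Egr1 (0.64). Dusp1 (0.25, limma adjusted p = 0.522), Nr4a1 and Nr4a2 were not called there. After wildtype I30 none of the 6 was called, with log2 changes of -0.19 (Ccn2) to 0.31 (Apold1). Between I30 hearts of both genotypes Ccn1 was higher in Per2-/- hearts by 1.00 (standard error 0.15, limma adjusted p = 0.00225) and Egr1 by 0.61 (standard error 0.11, limma adjusted p = 0.0151). Between the sham hearts none of the 6 was called (0.24 for Ccn2 to 0.66 for Apold1).

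**Figure D5:**
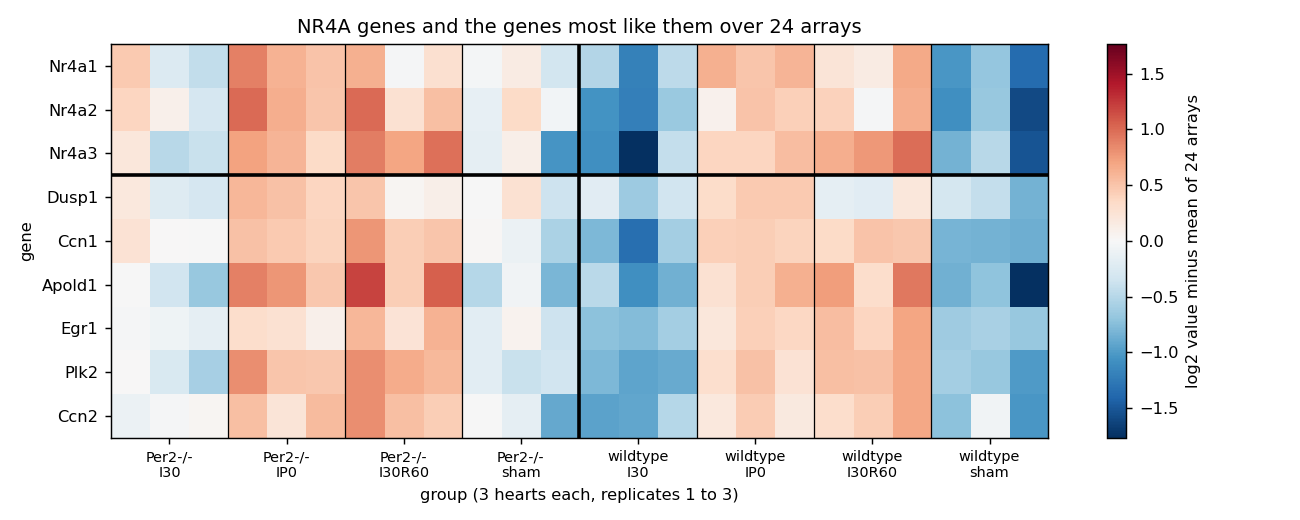
Log2 value minus the gene's mean of 24 arrays (colour) for the NR4A genes and the 6 genes most like them, in rows, and the 24 hearts in columns by group, Per2-/- left and wildtype right. Wildtype I30 and sham columns are blue for nearly all rows, and IP0 and I30R60 columns of both genotypes are mostly red. The 6 genes were chosen for likeness on these same arrays.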

How the data were processed

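Total RNA of left ventricles was hybridised to Affymetrix Mouse Gene 1.1 ST arrays. The authors normalized the arrays by RMA in Partek, and the deposited table holds a log2 intensity for each of 35555 probe sets. They carry no detection calls, so that a low value is not an absent transcript, and RMA compresses differences between low values. Of the probe sets, 21218 are paired with 1 symbol, 1881 with several and 12456 with none listed here. Only the first kind was used, and 1386 genes with several such probe sets were represented by the one with the highest mean. Group means of all 24 arrays were fitted with limma 3.58.1 in R 4.3.3 (16 residual degrees of freedom, default moderation), with adjustment over 18820 genes, and tested on simulated data. For its data in general the study names Student's t-test and an analysis of variance followed by Bonferroni comparisons. For the arrays it does not say which test was used. Student's t-test is called the methods' t-test here, and it is not known to be the authors' test of the arrays. The number of arrays, 3 per group, limits the precision. The labels give replicate numbers and the methods 3 animals per condition. Promoter windows are RefSeq's (GRCm38.p6). The members, the lists and the motifs were chosen with earlier results of these data known. Genes named beside the NR4A genes are the 5 with the highest r for each and, per list, up to 4 called members or else those with the largest change; Pfkm was chosen after its value was seen. Tables and plots were made with Python 3.11.15 (numpy 2.4.6, pandas 2.3.3, matplotlib 3.10.9). Alternatives were median centring, quantile normalization, the mean of all probe sets, array weights, a trended robust prior, a replicate block, only the groups compared, only genes above the median level, a 2-fold minimum, the methods' t-test, leaving out arrays of high Myl7, and leaving out each array.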

Additional observations from a re-analysis of the deposited data

How the results depend on the processing

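No NR4A value changed sign among the comparisons that were called. Without the arrays of high Myl7 only wildtype sham heart 3 is left, the lowest of its group for each gene. That fit is not counted here for treated wildtype hearts against sham. The number of NR4A genes called in wildtype hearts after I30R60 against sham otherwise stayed at 3 except under the methods' t-test (0). After IP0 against sham it was 1 when only the arrays of the compared groups were fitted (Nr4a1) and 0 under the methods' t-test. Without 1 array each it was 3 to 3 and 2 to 3. For I30R60 against I30 in wildtype hearts it was 2 with only the compared arrays (limma adjusted p of Nr4a1 = 0.0690), 0 under the methods' t-test and 2 to 3 without 1 array. For IP0 against I30 it was 0 under the methods' t-test and with only the compared arrays, and 3 to 3 without 1 array. In Per2-/- hearts, I30R60 against sham went to 0 of 3 with only the compared arrays, under the methods' t-test and without the arrays of high Myl7, and was 0 to 1 without 1 array. I30R60 against I30 went to 0 under quantile normalization, the trended robust prior, the replicate block and the methods' t-test, and was 0 to 1 without 1 array. Per2-/- against wildtype sham went to 0 under median centring (limma adjusted p of Nr4a2 = 0.0594), quantile normalization (0.0552), the replicate block, only the compared arrays, the methods' t-test and without high Myl7, to 2 with array weights, and was 0 to 1 without 1 array. Per2-/- against wildtype I30 went to 1 (Nr4a2) with the trended robust prior and with only genes above the median level, and was 0 to 1 without 1 array. The methods' t-test and the fits of only the compared arrays rest on fewer degrees of freedom. Of the 5 genes most like Nr4a1, Nr4a2 and Nr4a3, 3, 2 and 1 stayed when deviations from group means were correlated, and 2 of those of Nr4a3 stayed under Spearman's rho. The replicate numbers did not pair the hearts: deviations correlated by 0.0203 on average between arrays of one number and by -0.0101 between others, and only in 1 of the 28 pairings of groups did all same-number correlations exceed 0.1. The block moved no other NR4A call. Over all genes, the count called ranged from 1 to 348 across alternatives other than leaving out 1 array for wildtype IP0 (160 as reported), 2 to 644 for wildtype I30R60 (464), 3 to 1191 for Per2-/- I30R60 (901) and 0 to 100 for Per2-/- against wildtype sham (50), with the lowest under the methods' t-test.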
